A study of Rattus norvegicus with 6 samples.

Results

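The nuclear-encoded genes of the respiratory chain were taken as every gene symbol that starts with Nduf, Uqcr, Atp5 or Cox4 to Cox8, together with Sdha, Sdhb, Sdhc and Sdhd, and their expression was compared between Schwann cell precursors (SCPs) and repair Schwann cells (RSCs). The rule found 94 of the 29468 gene symbols in the deposited tables. Of these, 47 belonged to complex I, 4 to complex II, 8 to complex III, 18 to complex IV and 17 to complex V, and the symbol alone set the complex, assembly factors and gene copies included. The SCPs were dissociated from sciatic nerves of both sides and the brachial plexus of LEWIS rat embryos at embryonic day 14, without further treatment. The RSCs were dissociated from the distal part of transected sciatic nerves of LEWIS rats aged 10 weeks, 1 week after the nerve was cut. The labels give all animals as wild type, while the methods of the study describe graft cells from LEWIS rats that carry a reporter transgene at ROSA 26, active in all tissues, and whether the sequenced cells carried it is not settled here. Each group has 3 samples, and the number of animals behind a sample is not given in the sources used here. The study describes 3 sets of cells prepared per group, but not whether they came from separate litters or animals, so the p-values measure the spread between these preparations. The 2 groups differ in age, nerve, injury and dissociation at the same time, and these cannot be told apart here.

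The respiratory chain sits in the inner mitochondrial membrane. Complex I (NADH dehydrogenase) and complex II (succinate dehydrogenase) pass electrons to coenzyme Q, complex III (the cytochrome bc1 complex) passes them on to cytochrome c, and complex IV (cytochrome c oxidase) hands them to oxygen. Complexes I, III and IV pump protons, and complex V, the ATP synthase, lets the protons back through a rotating ring and makes ATP. A minority of the subunits is encoded in mitochondrial DNA, and the others, described here, are made from nuclear genes and imported. Schwann cells derive from the neural crest and ensheath the axons of peripheral nerves. After a nerve is cut they turn into repair cells.

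Expression was measured by RNA sequencing and is given as FPKM, a fragment number divided by transcript length and by all mapped fragments of that sample, summed over the named transcripts of each symbol. Genes averaging at least 1 FPKM across the samples were tested with limma on log2(FPKM + 1), a scale that understates the change of weakly expressed genes. Fold changes are RSC minus SCP, and a gene was called at an unadjusted p under 0.01, with Benjamini-Hochberg adjusted p-values over all 13003 tested genes beside it. The study used the same p threshold with another test (Cuffdiff). It also required a log2 fold change over 2 for its differentially expressed genes, which the calls here do not. The tables hold no counts, so the absolute depth is unknown, and the relative depth was 0.933, 1.00 and 0.878 in SCP samples 1 to 3, against 0.799, 0.841 and 0.789 in RSC samples 1 to 3.

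Of the 94 genes 88 were tested. In this set 25 genes (28.4%) were higher in the SCPs, 3 (3.41%) were higher in the RSCs and 60 were not called. Among all tested genes 22.4% were higher in the SCPs and 18.1% higher in the RSCs. The share called for the SCPs was thus near the background, and the share called for the RSCs was below it. These counts depended on the scaling. Quantile normalization gave 31 genes (35.2%) higher in the SCPs and 2 (2.27%) higher in the RSCs, beside 23.1% and 17.9% of all tested genes. After median-of-ratios scaling 9 genes (10.2%) were higher in the SCPs and 7 (7.95%) higher in the RSCs, both below the 16.9% and 21.2% of all tested genes, and without RSC sample 2 the counts were 16 and 2 (18.2% and 2.27%, beside 18.2% and 16.1%). The changes were small. The median log2 fold change of the 88 genes was -0.21 against -0.17 for all tested genes, and the middle of the distribution ran from -0.48 to 0.01 (quartiles) against -0.80 to 0.68. Only Cox6b2 was called with a log2 fold change over 2 in size (4-fold), against a background of 3.78% of tested genes in that direction and 7.81% in the other. The 3 SCP values lay above the 3 RSC values in 35 genes and below them in 7, where 33.7% and 24.9% of all tested genes did so (58.6% in either direction). With the adjusted p under 0.01 the counts were 19 and 2, against 16.6% and 15% of all tested genes. Most of these genes are abundant. The 62 with a mean of at least 50 FPKM had 19 calls for the SCPs (30.6%) and 2 for the RSCs (3.23%), while all 1573 tested genes at that level had 38.6% and 28.9%.

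**Figure D1:**
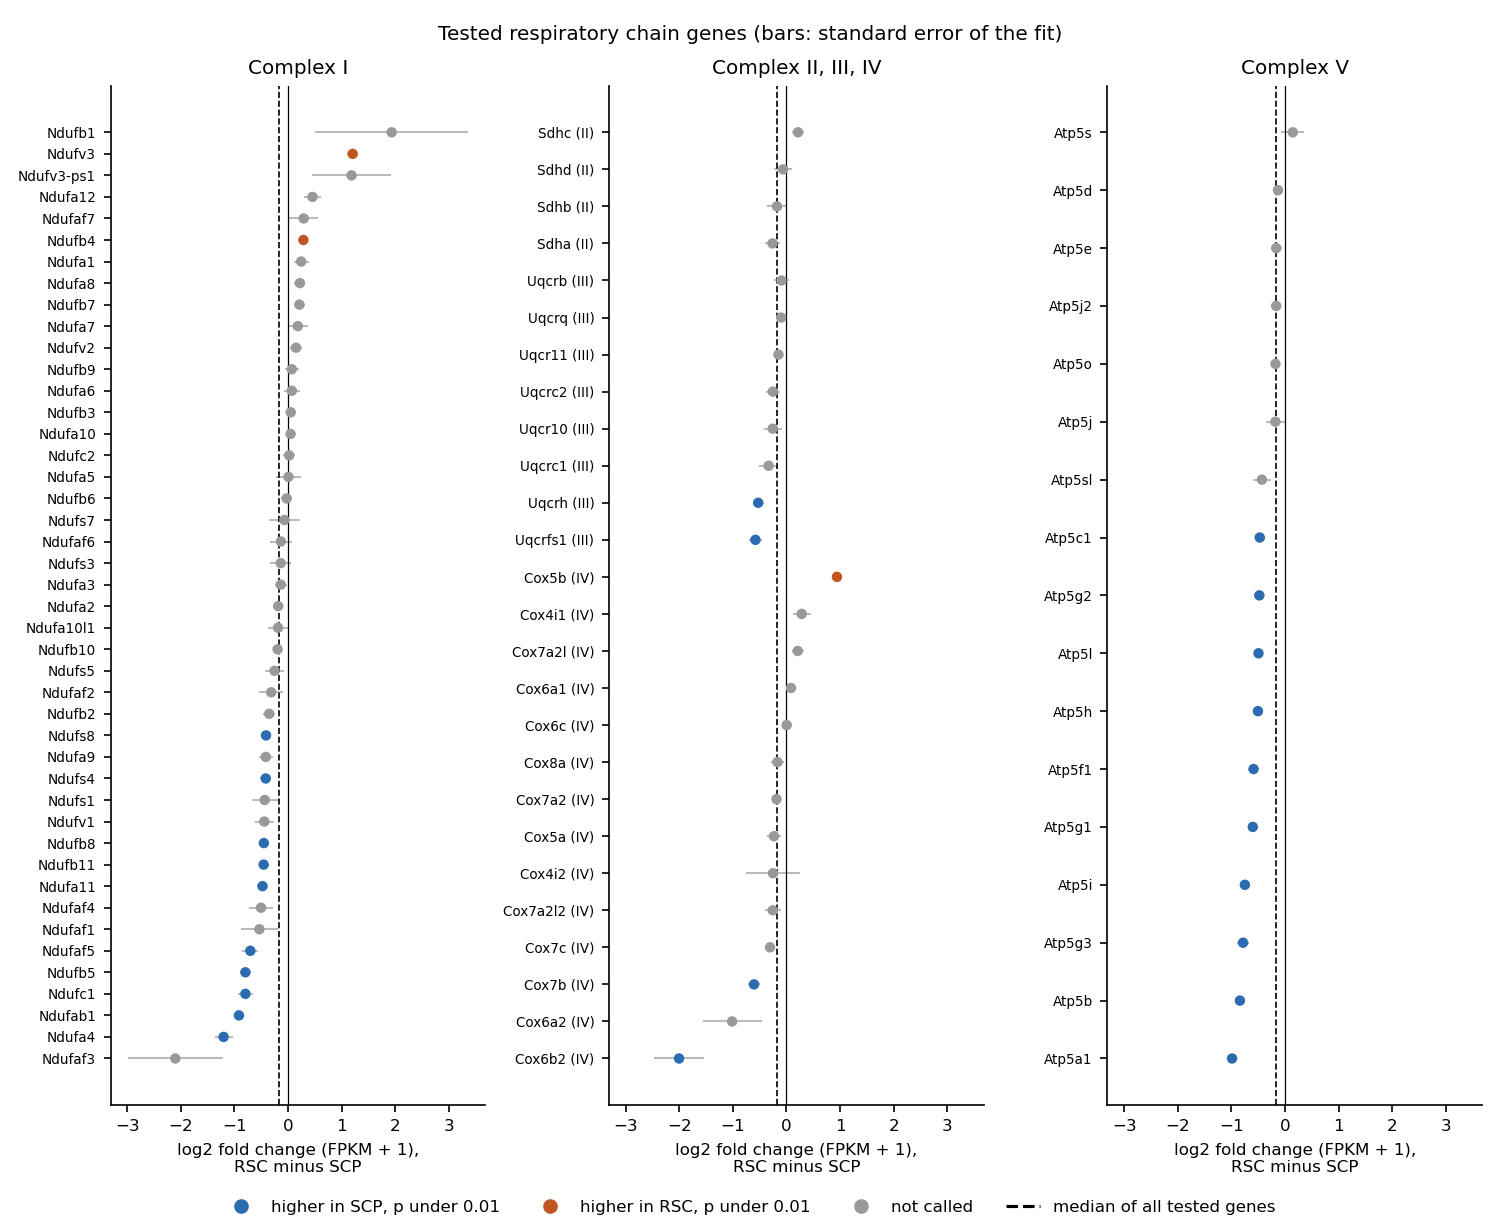
Log2 fold change (FPKM + 1, RSC minus SCP) of the tested respiratory chain genes by complex (1 gene is not shown), with the standard error of the fit as a bar and colour showing the call at p under 0.01. The dashed line is the median of all tested genes (-0.17), and 10 of the 17 genes of complex V were called to its left.

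Summed over all members, the SCPs held 11298, 10465 and 10413 FPKM and the RSCs 8931, 8819 and 9297 FPKM. In these deposited values every SCP sample lay above every RSC sample. After median-of-ratios scaling the sums were 10086, 9428 and 9887 in the SCPs and 9441, 9463 and 9791 in the RSCs, and the groups overlapped. As a share of the FPKM of all named genes without the globins, this was 2.26%, 2.14% and 2.18% in the SCPs and 1.80%, 1.74% and 1.77% in the RSCs. With the globins counted, the share was 2.0971%, 2.0111% and 1.687% in the SCPs and 1.7956%, 1.7341% and 1.7636% in the RSCs. SCP sample 3 then lay below every RSC sample, so the groups overlapped. The complexes did not contribute alike. Complex V genes summed to 4273, 3977 and 3981 FPKM in the SCPs and 2860, 2791 and 2898 FPKM in the RSCs, a ratio of 0.699 between the means, and the samples stayed apart after median-of-ratios scaling. Complex I genes summed to 3060 ± 150 FPKM in the SCPs and 2670 ± 97.3 FPKM in the RSCs (SD, n = 3 each), and complex III genes to 937 to 1049.6 FPKM and 809 to 855.26 FPKM, again without overlap of the deposited values. After median-of-ratios scaling the samples of both complexes overlapped, and the mean of complex I was then higher in the RSCs (2796 and 2833). Complex II genes summed to 319, 329 and 253 FPKM in the SCPs and 258, 285 and 297 FPKM in the RSCs, and complex IV genes to 2424, 2220 and 2276 FPKM and 2382, 2327 and 2465 FPKM. In both of these the groups overlapped, while after median-of-ratios scaling the complex IV sums were higher in the RSCs without overlap.

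**Figure D2:**
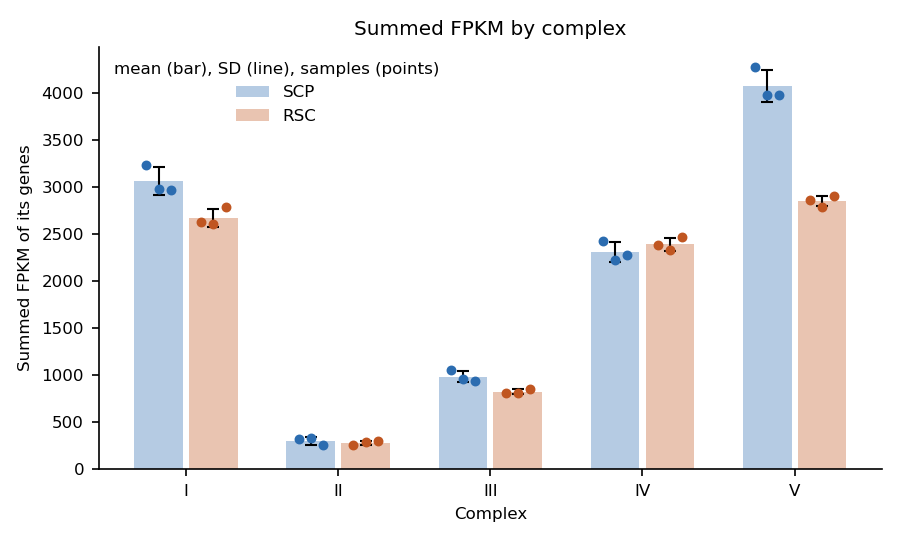
Summed FPKM of the genes of each complex, with the mean of 3 samples as a bar, the SD as a line and each sample as a point. In the deposited values the SCP and RSC samples are farthest apart in complex V, and they overlap in complexes II and IV.

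The make-up of the chain, which a single scaling factor per library leaves as it is, was nearly constant within each group. Complex V held 37.8%, 38.0% and 38.2% of the summed FPKM in the SCPs and 32.02%, 31.6% and 31.2% in the RSCs. The share of complex IV was 21.5%, 21.2% and 21.9% in the SCPs and 26.7%, 26.4% and 26.5% in the RSCs. Much of this gap lay in Cox5b, since without it the share was 19.1%, 19.0% and 19.5% against 20.7%, 21.4% and 21.4%, and the mean sum of the complex was 2056 FPKM in the SCPs and 1908 FPKM in the RSCs, with samples that overlapped. After median-of-ratios scaling that sum was higher in the RSCs without overlap (means of 1879.5 and 2024.6). It was higher in the SCPs without overlap after quantile normalization (means of 2148.7 and 1830.2) and after rescaling without globins (4205.8 and 3750.6). Its direction thus depended on the scaling. By its symbol Ndufa4, a subunit later found in complex IV, was counted in complex I in all these sums and shares. Values with it moved to complex IV are not given here. Quantile normalization, which alters the shares, gave 37.8% to 38.1% and 30.8% to 32.1% for complex V and 21.4% to 22.3% and 26.0% to 26.8% for complex IV. Complex I held 28.5% to 28.6% in the SCPs and 29.3% to 29.9% in the RSCs, complex III at most 9.29% and 9.20%, and complex II 2.43% to 3.15% and 2.89% to 3.23%.

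Complex V had the highest share of called genes. Of its 17 genes 10 (58.8%) were higher in the SCPs and none was higher in the RSCs, beside the background of 22.4% and 18.1%. All of its genes but Atp5s and Atp5sl averaged at least 50 FPKM. Among all 1573 tested genes at that level the shares were higher, 38.6% and 28.9%. Of the 17 log2 fold changes 16 were below 0, and 13 were below the median of all tested genes (-0.17). The median of the complex was -0.48, which is 0.31 below that of all tested genes. The ATP synthase is built of a catalytic head, a ring of c subunits in the membrane, and a stalk that holds the head still. In the head, Atp5b encodes the catalytic beta subunit and was the most abundant of all members (chromosome 7 from 2504708 to 2511748 of rn6). It stood at 766, 679 and 639 FPKM in the SCPs and 380.4, 380.2 and 399 FPKM in the RSCs. The groups lay well apart, the log2 fold change being -0.84 (standard error 0.08, adjusted p = 5.3e-04). Atp5a1, which encodes the alpha subunit next to it (chromosome 18 from 74156553 to 74164490), was at 263, 240.1 and 222 FPKM in the SCPs and 125, 127 and 112 FPKM in the RSCs. This was a 1.99-fold difference between the means, the largest of the complex on the log2 scale (-0.99, standard error 0.09, adjusted p = 4.5e-04). Atp5c1, the gamma subunit that turns inside the head, was also called, with a log2 fold change of -0.47. The small delta and epsilon subunits of the head were not. Atp5d had 160 ± 10.9 FPKM in the SCPs and 146 ± 2.30 FPKM in the RSCs, and Atp5e had 445 ± 45.2 and 397 ± 36.5 FPKM.

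The c ring is encoded by Atp5g1, Atp5g2 and Atp5g3, which give the same mature protein, and all 3 genes were higher in the SCPs. Atp5g3 (chromosome 3 from 60811218 to 60813899) stood at 279, 250.5 and 234 FPKM in the SCPs and 156, 130 and 157 FPKM in the RSCs (log2 fold change -0.78, standard error 0.11, adjusted p = 0.0021). Atp5g2 was the most abundant of these in every sample, with 511, 467 and 419 FPKM in the SCPs and 312, 337 and 351 FPKM in the RSCs (log2 fold change -0.48, standard error 0.09, adjusted p = 0.0077). Atp5g1 was at 157, 147 and 171 FPKM and at 114, 99.2 and 98.7 FPKM (log2 fold change -0.60, standard error 0.10, adjusted p = 0.0036). Of their shares of the summed c ring message, only that of Atp5g3 separated the groups, being higher in every SCP sample. Atp5g1 made up 18.1 ± 2.33% in the SCPs and 17.8 ± 1.68% in the RSCs, Atp5g2 52.9 ± 1.84% and 57.0 ± 3.08%, and Atp5g3 28.9 ± 0.534% and 25.2 ± 2.03% (SD, n = 3 each).

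Of the 7 genes for the stalk and its membrane part, 4 were called. Atp5i, subunit e of the membrane part, which helps ATP synthases pair up, was at 333, 325 and 337 FPKM in the SCPs and 218, 182 and 193 FPKM in the RSCs, the log2 fold change being -0.75 (standard error 0.08, adjusted p = 8.6e-04). Atp5f1, subunit b of the stalk, Atp5h, subunit d, and Atp5l, subunit g, followed with -0.59, -0.50 and -0.49. Atp5j, Atp5j2 and Atp5o, which encode subunits F6, f and OSCP, had log2 fold changes of -0.18, -0.16 and -0.18 with overlapping groups. Atp5s and Atp5sl carry the prefix but are not subunits of the enzyme. Atp5s was near 2 FPKM in both groups, and Atp5sl had 21.0 ± 2.92 FPKM in the SCPs and 15.3 ± 2.18 FPKM in the RSCs without passing the test.

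**Figure D3:**
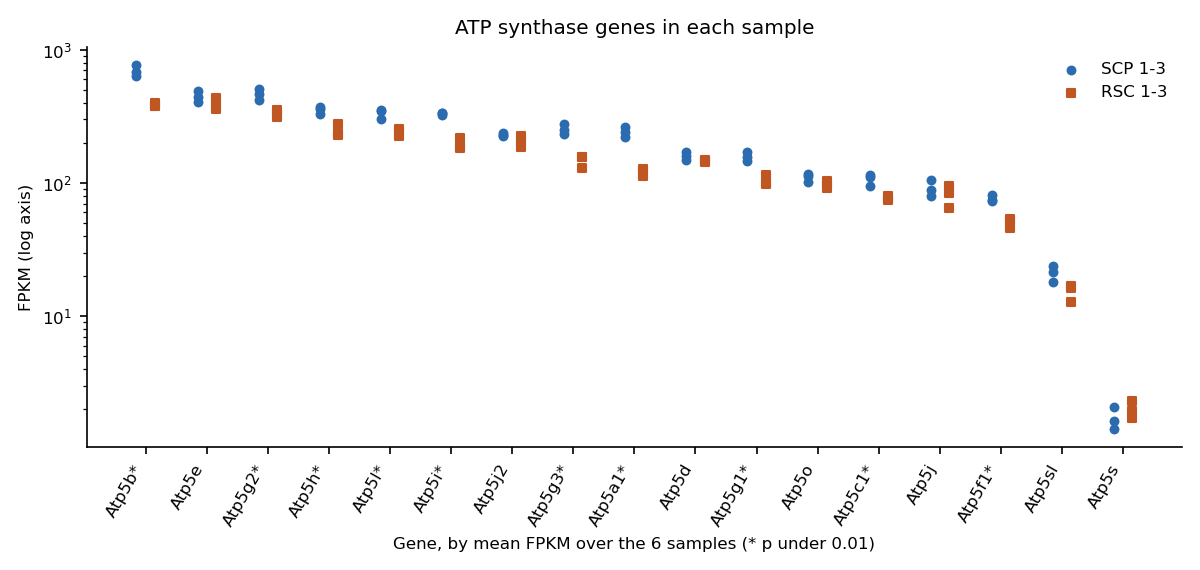
FPKM (log axis) of the 17 genes of complex V in each sample, circles for the SCPs and squares for the RSCs, ordered by mean level, with an asterisk at the 10 genes called higher in the SCPs. Atp5b stands highest, with SCP values of 639 to 766 FPKM and RSC values of 380.2 to 399 FPKM.

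The calls of complex V depended in number, but not in direction, on the scaling. Median-of-ratios scaling, which moved the median of all tested genes from -0.17 to 0.01, left 6 of the 10 (Atp5a1, Atp5b, Atp5f1, Atp5g3, Atp5i and Atp5l), beside 16.9% of all tested genes in that direction, and these 6 kept their call in each of the 16 other fits run (other scalings, filters, pseudocounts, transcript sums, variance models and samples left out). After that scaling 11 of the 17 values were below 0, and under the others run 16 were, or 16 of 16 with the stricter filter. With 1 sample left out 8 to 10 of the 17 were called, 8 without RSC sample 2 or SCP sample 2 and 10 without SCP sample 1 or 3. Without the variance trend 7 were called. The shares of all tested genes were then 18.2% to 20.2% and 21.7%.

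Stretches before the start sites of 4 genes are shown. The first 3 genes are a selection from the complex V genes called higher in the SCPs, and the fourth, Cox5b, was called higher in the RSCs. All 4 stretches are cut alike. They are the 250 bases upstream of the annotated start, from RefSeq on GRCr8, a newer build than the one of the expression tables, 5′ to 3′ on the gene's strand. Capitals mark GCGCA followed directly by TGCGC, a site that the factor NRF1 is known to bind and that reads the same on both strands, and CCGGAAG or its complement CTTCCGG, the core bound by GABP and other ETS factors. Both factors are known regulators of respiratory chain genes. The Atp5b stretch (chr7:1099808-1100057, plus strand) holds neither, that of Atp5g2 (chr7:135678219-135678468, minus strand) holds the first, that of Atp5i (chr14:1464610-1464859, plus strand) holds both, and that of Cox5b (chr9:46417587-46417836, plus strand) holds the second.
Atp5b: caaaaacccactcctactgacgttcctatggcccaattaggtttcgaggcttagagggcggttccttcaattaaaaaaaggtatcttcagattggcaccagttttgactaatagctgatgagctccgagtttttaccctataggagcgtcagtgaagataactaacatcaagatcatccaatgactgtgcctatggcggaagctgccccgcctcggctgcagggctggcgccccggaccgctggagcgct
Atp5g2: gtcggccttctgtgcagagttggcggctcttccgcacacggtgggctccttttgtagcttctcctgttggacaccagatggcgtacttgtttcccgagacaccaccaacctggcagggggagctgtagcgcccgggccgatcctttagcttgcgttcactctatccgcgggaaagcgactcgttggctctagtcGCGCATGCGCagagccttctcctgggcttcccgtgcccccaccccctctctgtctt
Atp5i: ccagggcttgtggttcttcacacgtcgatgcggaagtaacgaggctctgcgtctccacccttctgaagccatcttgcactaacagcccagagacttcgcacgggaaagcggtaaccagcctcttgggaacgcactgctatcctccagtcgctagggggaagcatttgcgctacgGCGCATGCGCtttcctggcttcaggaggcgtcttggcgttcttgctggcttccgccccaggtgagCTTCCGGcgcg
Cox5b: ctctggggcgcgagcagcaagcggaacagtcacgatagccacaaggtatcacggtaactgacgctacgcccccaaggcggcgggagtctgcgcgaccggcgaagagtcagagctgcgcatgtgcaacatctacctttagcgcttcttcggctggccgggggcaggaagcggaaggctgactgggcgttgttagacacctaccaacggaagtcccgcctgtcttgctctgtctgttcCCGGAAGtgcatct
Promoter entries, which reach from 250 bases before to 50 bases after the start, matched 80 of the 94 symbols, 65 by symbol and 15 by an older name. The NRF1 sequence was in 6 of these 80 (7.5%) and in 0.932% of all 27457 promoters, and the ETS sequence in 20 (25%) and in 9.22%. By complex, the NRF1 sequence was in 3 of 15 promoters of complex V, 3 of 41 of complex I and none of the 24 others. It was in 4 of the 23 matched genes called higher in the SCPs (Atp5g2, Atp5i, Ndufa11 and Ndufaf5), and the ETS sequence was in 5 of the 23. Only Atp5g2 and Atp5i of these belong to complex V, and both are printed above, so the printed stretches are not typical of the called genes. The sequence TCAAGGTCA, bound by estrogen-related receptors, was in 2 of the 80 (2.5%) and in 0.412% of all promoters, on either strand. The members' promoters were also richer in G and C, with a median of 56.7% against 52.3%. A match describes the letters only, and binding was not measured.

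Complex I had calls in both directions. Of its 45 tested genes 11 (24.4%) were higher in the SCPs and 2 (4.44%) higher in the RSCs, against 22.4% and 18.1% of all tested genes, and its median log2 fold change of -0.18 was next to that of all tested genes. After median-of-ratios scaling 3 of its genes were higher in the SCPs and 5 higher in the RSCs, beside 16.9% and 21.2% of all tested genes, where the balance also turned. Without RSC sample 2 the counts were 5 and 1, beside 18.2% and 16.1%. Among the core subunits, which bind NADH and carry the flavin and iron-sulfur clusters, Ndufs8 was called, with a log2 fold change of -0.41. Ndufv1 and Ndufv2, which hold the NADH site, were not called, with -0.44 and 0.15. The largest difference among its genes called higher in the SCPs was that of Ndufa4, a subunit first assigned to complex I and later found in complex IV (chromosome 4 from 38233680 to 38240848). It stood at 166, 187 and 138 FPKM in the SCPs and 85.1, 60.1 and 67.0 FPKM in the RSCs, a 2.31-fold difference (log2 fold change -1.20, standard error 0.17, adjusted p = 0.0022). An unnamed transcript of 66.6 FPKM lay at this gene in RSC sample 2, and with unnamed transcripts added the log2 fold change was -0.85 and the call was lost. Ndufab1, the mitochondrial acyl carrier protein, which also serves fatty acid and lipoic acid synthesis, was at 158, 146 and 159 FPKM and at 88.6, 81.7 and 73.7 FPKM. Its change on the log2 scale, -0.92 (standard error 0.09, adjusted p = 5.9e-04), was called in every one of the 16 other fits. Ndufc1 was at 29.0, 34.2 and 41.2 FPKM and at 19.0, 20.4 and 18.9 FPKM (log2 fold change -0.80, standard error 0.15, adjusted p = 0.0061). Ndufb5, a membrane arm subunit, had the same log2 fold change, and Ndufb8, the most abundant gene of the complex, had 274, 252 and 256 FPKM in the SCPs and 169.9, 189.6 and 214 FPKM in the RSCs (log2 fold change -0.45). Ndufa11, Ndufb11, Ndufs4 and the assembly factor Ndufaf5 were also called, with -0.48, -0.46, -0.42 and -0.70.

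Ndufv3 went the other way. It encodes a small subunit beside the flavin site, of which a short and a long form are known (chromosome 20 from 10265826 to 10275298), and it was at 23.2, 19.6 and 23.4 FPKM in the SCPs and 51.8, 52.1 and 52.4 FPKM in the RSCs. The log2 fold change was 1.21 (standard error 0.10, adjusted p = 3.0e-04), and it was called in all 16 other fits. Both of its transcripts were higher in every RSC sample than in every SCP sample. The one of 486 bases was at 11.7, 7.53 and 11.1 FPKM in the SCPs and 31.3, 31.3 and 27.9 FPKM in the RSCs, and the one of 1536 bases at 11.4, 12.1 and 12.3 FPKM and 20.5, 20.8 and 24.5 FPKM. The shorter one made up 45.5 ± 6.41% of the gene in the SCPs and 57.9 ± 4.03% in the RSCs (SD, n = 3 each). Ndufb4 was the other gene of complex I called higher in the RSCs, at 101 ± 4.08 FPKM in the SCPs and 123.2 ± 5.49 FPKM in the RSCs (log2 fold change 0.29, standard error 0.07, adjusted p = 0.019), and 9 of the 16 other fits lost this call.

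Most other genes of complex I overlapped between the groups or missed the threshold. Their log2 fold changes lay between -0.53 and 0.46, apart from Ndufaf3, Ndufv3-ps1 and Ndufb1, each with samples listed at 0. A 0 in these tables can be a failed estimate, so no fold is given for them. Ndufaf3, an assembly factor, was listed at 7.25, 0 and 8.64 FPKM in the SCPs and at 0 in every RSC sample. Ndufb1 was at 33.5, 0 and 37.1 FPKM and at 46.0, 38.9 and 38.0 FPKM, so the SCP sample listed at 0 sets its difference. Of the 7 assembly factors with the Ndufaf prefix, which build the complex without staying in it, 6 had values below 0. Of these, 5 were below the median of all tested genes, and only Ndufaf5 was called. Ndufs6 and Ndufa4l2 were listed at 0 in all 6 samples and were not tested.

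None of the 4 genes of complex II, which is also an enzyme of the citric acid cycle, was called. Sdha, the flavin subunit, was at 74.9, 103 and 83.9 FPKM in the SCPs and 64.3, 72.5 and 79.99 FPKM in the RSCs, and Sdhb, the iron-sulfur subunit, at 105, 86.7 and 64.3 FPKM and 66.1, 78.3 and 77.6 FPKM. The membrane anchors Sdhc and Sdhd had 60.9 ± 6.09 and 67.1 ± 14.4 FPKM in the SCPs and 70.8 ± 6.28 and 63.1 ± 1.17 FPKM in the RSCs (SD, n = 3 each). The groups overlapped in each. Their log2 fold changes were -0.26, -0.18, 0.22 and -0.06 for Sdha to Sdhd, with standard errors of 0.15, 0.19, 0.11 and 0.17. Sdha (-0.36) and Sdhb (-0.52) were called with unnamed transcripts added, and Sdhc (0.43) after median-of-ratios scaling.

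In complex III 2 of 8 genes (25%) were called, both higher in the SCPs. All 8 values were below 0 (5 of 8 after median-of-ratios scaling), with a median of -0.26. Of the 8 values 5 were also below the median of all tested genes (-0.17). The share called was close to the 22.4% of all tested genes. Uqcrfs1, the Rieske iron-sulfur protein, was at 83.2, 75.7 and 63.9 FPKM in the SCPs and 46.1, 48.5 and 53.0 FPKM in the RSCs (log2 fold change -0.58, standard error 0.12, adjusted p = 0.01). Uqcrh, the hinge protein at the cytochrome c site, was at 161, 137 and 138 FPKM and 103, 91.5 and 107 FPKM (log2 fold change -0.53, standard error 0.10, adjusted p = 0.0073). Neither call was left after median-of-ratios scaling. Uqcrq was the most abundant, with 291 ± 18.1 and 272 ± 24.1 FPKM, and its groups overlapped. The core proteins Uqcrc1 and Uqcrc2 and the small subunits Uqcr10, Uqcr11 and Uqcrb lay between -0.33 and -0.09.

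In complex IV, Cox5b was also higher in the RSCs. It encodes a zinc-binding subunit on the matrix side (chromosome 9 from 43259706 to 43262039), and it was at 269.8, 235 and 247 FPKM in the SCPs and 537, 438 and 474 FPKM in the RSCs. The lowest RSC sample stood above the highest SCP sample by more than the spread of either group, the log2 fold change being 0.94 (standard error 0.10, adjusted p = 7.0e-04), and the call held in all 16 other fits. The gene has a single listed transcript. Cox5a, the other matrix-side subunit, was at 168, 162 and 129 FPKM and at 122, 124 and 142 FPKM. The ratio of Cox5b to Cox5a, taken within each sample, was thus 1.61, 1.45 and 1.92 in the SCPs and 4.41, 3.53 and 3.35 in the RSCs. An unnamed transcript of 206 FPKM lay at Cox5a in SCP sample 1.

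Of the general subunits of complex IV, Cox7b, a small subunit needed for assembly, was at 193, 152 and 179 FPKM in the SCPs and 120.1, 104 and 118 FPKM in the RSCs (log2 fold change -0.61, standard error 0.11, adjusted p = 0.0063). Cox8a, the most abundant, had 465 ± 32.5 and 416 ± 63.1 FPKM, and its groups overlapped. Cox4i1, Cox6a1, Cox6c, Cox7a2, Cox7c, Cox7a2l and Cox7a2l2 lay between -0.31 and 0.28 without a call, although Cox7a2 and Cox7c did not overlap between the groups. Complex IV as a whole had 2 of 14 tested genes higher in the SCPs and 1 higher in the RSCs, beside 22.4% and 18.1% of all tested genes, with a median of -0.21. After median-of-ratios scaling Cox7b and Cox6b2 were no longer called, and Cox5b was the one call left.

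**Figure D4:**
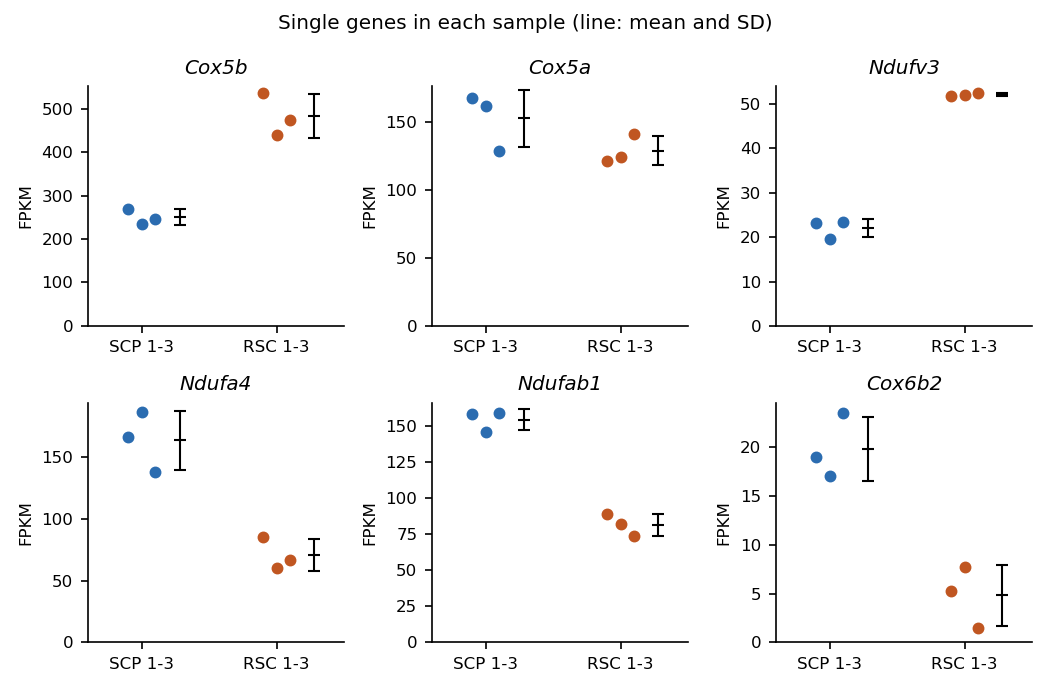
FPKM in each sample (points) with the mean and SD (line) for 6 genes named in the text. Cox5b and Ndufv3 are higher in every RSC sample, Ndufa4, Ndufab1 and Cox6b2 are higher in every SCP sample, and Cox5a overlaps.

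Several subunits of complex IV come in tissue forms. Cox6b2, known from testis, was the member with the largest called difference, at 18.9, 17.0 and 23.5 FPKM in the SCPs and 5.23, 7.74 and 1.49 FPKM in the RSCs (log2 fold change -2.01, standard error 0.47, adjusted p = 0.016). The groups lay apart, but 7 of the 16 other fits lost the call, each omission of an SCP sample included. Its general partner was not analysed here. Cox4i2, known from lung and from mural cells under low oxygen, made up 1.86%, 3.63% and 0.950% of the Cox4i1 and Cox4i2 message in the SCPs and 2.35%, 1.16% and 0.622% in the RSCs, so the groups overlapped. Cox6a2, the heart and skeletal muscle form, was at 0.738, 2.03 and 6.63 FPKM in the SCPs and 0.631, 0.590 and 0.876 FPKM in the RSCs, a share of 1.00 ± 0.935% and 0.216 ± 0.0312% of its pair (SD, n = 3 each). It was not called. The muscle form Cox8b was listed only in SCP sample 3, at 1.52 FPKM, and Cox7b2, Cox8c and Cox6c-ps1 were at 0 in all 6 samples. These 4 were not tested.

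SCP sample 3, highest for Cox6a2 and Cox8b, also had the highest sums of muscle markers, but not the highest value of every marker. Ckm was lowest in that sample, at 2.78, 5.31 and 1.17 FPKM in the SCPs and 2.35, 5.69 and 2.28 FPKM in the RSCs. Tnnt3 and Myh8 were at 0 in it. The 10 skeletal muscle markers summed to 70.8, 105 and 242 FPKM in the SCPs and 9.76, 26.3 and 17.1 FPKM in the RSCs, with Mylpf the most abundant (24.4, 46.5 and 121 FPKM in the SCPs) and 5 called higher in the SCPs. The 4 cardiac and slow fibre markers, led by Actc1, summed to 25.9, 58.1 and 135 FPKM and 1.37, 0.929 and 2.70 FPKM. Myod1 and Tnnt3 were at 0 in every RSC sample, and Tnnt3 also in SCP samples 2 and 3. Their part in the values of Cox6a2 was not tested.

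**Figure D5:**
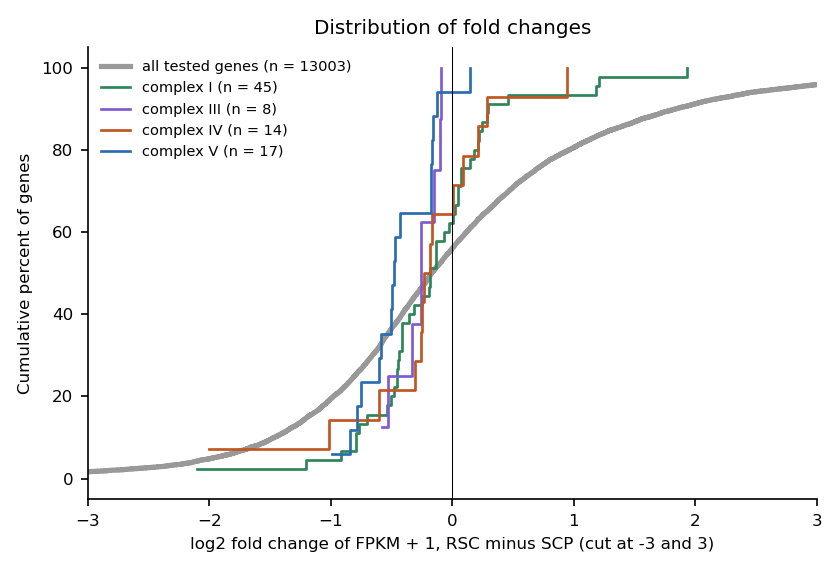
Cumulative share (percent) of log2 fold changes (RSC minus SCP) of all tested genes and of complexes I, III, IV and V. The curve of complex V reaches its median at -0.48, while complexes I, III and IV have medians from -0.26 to -0.18, near that of all genes.

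The genes that build or feed the chain were looked at through fixed lists. Of 17 tested assembly factors of complex IV 5 were higher in the SCPs and 1 in the RSCs, with a median of -0.14. Among all tested genes the shares were 22.4% and 18.1%. The gene higher in the RSCs was Cox17, the copper chaperone of the enzyme, at 18.2, 20.6 and 14.6 FPKM in the SCPs and 62.2, 55.4 and 60.4 FPKM in the RSCs (log2 fold change 1.69, standard error 0.14, adjusted p = 3.2e-04), the same direction as Cox5b. Lrpprc, which stabilises mitochondrial messages, and Cox11, which delivers copper to the first subunit, were among the 5, with log2 fold changes of -1.03 and -1.02. Outside the Nduf prefix 2 of 8 complex I assembly factors, Acad9 (-1.06) and Tmem126b (-0.48), were higher in the SCPs. Among 7 partners and assembly factors of complex III 1 was, Cyc1, the cytochrome c1 of the complex itself, at 131, 112 and 97.6 FPKM and 60.1, 62.2 and 69.4 FPKM (log2 fold change -0.81, standard error 0.13, adjusted p = 0.0034). Of 6 genes for assembly or inhibition of complexes II and V 2 were higher in the SCPs, Usmg5, a small ATP synthase subunit under another name (443, 388 and 691 FPKM against 229, 257 and 298 FPKM), and Tmem70, an ATP synthase assembly factor, with log2 fold changes of -0.92 and -0.90. The list's median was -0.84. After median-of-ratios scaling the list of complex IV assembly factors had 3 calls each way, beside 16.9% and 21.2% of all tested genes, and a median of 0.07, Cox17, Lrpprc and Cox11 among the calls, while Tmem126b and Usmg5 were no longer called.

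The citric acid cycle makes the NADH and succinate that the chain consumes. Of 16 tested genes of this cycle and of pyruvate dehydrogenase 5 (31.2%) were higher in the SCPs and none in the RSCs, with a median of -0.29, beside 22.4% and 18.1% of all tested genes. The largest was Idh2, the mitochondrial isocitrate dehydrogenase that makes NADPH, at 247, 252 and 260 FPKM in the SCPs and 93.9, 88.7 and 103 FPKM in the RSCs (log2 fold change -1.40, standard error 0.08, adjusted p = 6.9e-05). Cs, the citrate synthase that opens the cycle, had -0.89 (standard error 0.23, adjusted p = 0.022). Of 13 genes for mitochondrial transcription and its nuclear regulators 4 were higher in the SCPs and none in the RSCs, with a median of -0.58. Tfam, which packages and transcribes mitochondrial DNA, was at 36.6, 31.3 and 33.1 FPKM and 15.3, 9.79 and 10.7 FPKM (log2 fold change -1.44, standard error 0.18, adjusted p = 0.0014). Gabpb1 and Gabpa, the subunits of the ETS factor GABP, were among the 4, and Gabpb1 had 8.08, 11.6 and 11.8 FPKM in the SCPs and 3.73, 3.01 and 2.46 FPKM in the RSCs (log2 fold change -1.49, standard error 0.22, adjusted p = 0.0027). Median-of-ratios scaling left 3 calls for the SCPs in each of these lists, Idh2, Tfam and Gabpb1 among them and Cs and Gabpa not, and added Idh3a and Pdha1 as 2 calls for the RSCs in the first.

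Before use the authors let the dissociated cells settle briefly in uncoated flasks and kept the floating ones, a step meant to take away fibroblasts and macrophages. Markers of these and other cells were still measured, and in bulk samples fewer cells of a type and less RNA per cell cannot be told apart. Sox10, a defining marker of the lineage, was at 179, 175 and 181 FPKM in the SCPs and 149, 143 and 143 FPKM in the RSCs. The 8 Schwann markers summed to 451, 453 and 511 FPKM and 2395, 1873 and 2306 FPKM, with Ngfr the most abundant. Erbb3 and Foxd3 were at 0 in samples of both groups. All 8 macrophage and leukocyte markers were over 4-fold higher in the RSCs and summed to 13.3, 28.04 and 39.9 FPKM in the SCPs and 2171, 2502 and 2618 FPKM in the RSCs, with Lyz2 the most abundant and Cd163 and Cd68 at 0 in SCP samples 1 and 2. The 6 fibroblast markers summed to 641, 912 and 1020.1 FPKM and 5359.9, 8011 and 6756 FPKM, with Dcn the most abundant and 5 called higher in the RSCs. Erythroid markers moved the other way. All 6 tested ones were higher in the SCPs, led by Hbe1 with 16879, 13854 and 68201 FPKM, while Hbe1 and Hbz were at 0 in every RSC sample and Alas2 in every SCP sample. Globin genes held 7.23%, 6.09% and 22.5% of named FPKM in the SCPs and 0.504%, 0.387% and 0.498% in the RSCs. Leaving the globins out and rescaling gave 27 calls for the SCPs and 2 for the RSCs, 10 of the former in complex V, beside 23.9% and 17.1% of all tested genes. The 4 tested genes of 5 cell cycle markers, led by Pcna (166, 137 and 103 FPKM against 74.1, 69.3 and 80.5 FPKM), were all higher in the SCPs, and Top2a was listed at 0 in all 6 samples. The part of these cell types and of cycling in the values of the respiratory chain genes was not tested.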

How the data were processed

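RNA of 3 SCP and 3 RSC samples was read by the authors from both ends of stranded mRNA fragments, mapped to rn6 with TopHat2 2.1.0 and quantified with Cufflinks 2.2.1, after FastQC 0.11.2, as the submitters' processing notes list them. For each sample the authors deposited FPKM per transcript and the read coverage, a signal from which relative depth was taken as the median ratio of coverage to FPKM. FPKM divides by transcript length and mapped fragments, so a very abundant gene family lowers all other values. FPKM of named transcripts were summed by symbol. Unnamed transcripts, assembled separately per sample, were left out of the main analysis, and so were 77 transcripts per sample with date-like names. Positions are from the tables on rn6, counted from 1. Cufflinks' division of reads between near-identical copies is not stated. Symbols Ndufa1 and Ndufb1 cover more than 1 locus.

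All 6 samples entered one fit with limma 3.58.1, run in R 4.3.3 (two-sided, variance trend, no block), with pandas 2.3.3 for the tables, and the fit was tested on simulated data. Precision rests on 3 samples per group. The members and all gene lists were chosen with earlier results of these data known, and the grouping of subunits by role was made after their values were seen. By rule the text names, per complex and direction, up to 3 called members with the largest change, the most abundant member, isoform pairs, Sdha to Sdhd, members at 0 in one group and untested members; per list, up to 2 called genes per direction; and the most abundant and the zero markers. Other genes were named after their values were seen, and some genes are counted but not reported here by name. The alternatives, given at the end, were a pseudocount of 0.1, no filter or at least 5 FPKM, quantile or median-of-ratios scaling, leaving out globins, no variance trend, a replicate block, adjusted p, unnamed transcripts added, the highest transcript per symbol, each sample left out and, chosen after seeing the data, a call also beyond the median of all tested genes.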

Additional observations from a re-analysis of the deposited data

How the results depend on the processing

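The count of members higher in the SCPs (25) went to 9 after median-of-ratios scaling and to 16 without the variance trend (18.2%, beside 21.7% of all tested genes), and the count higher in the RSCs (3) went to 7 after median-of-ratios scaling. The former count was 31 after quantile normalization (35.2%, beside 23.1% of all tested genes) and 30 with unnamed transcripts added (34.1%, beside 34.2%). All 25 and all 3 kept their direction in the 16 other fits, and 8 (Atp5a1, Atp5b, Atp5f1, Atp5g3, Atp5i, Atp5l, Ndufab1 and Ndufb5) and 2 (Cox5b and Ndufv3) kept their call in each. Leaving out 1 sample gave 16 to 22 for the SCPs, lowest without RSC sample 2, beside 18.2% to 20.2% of all tested genes, and 2 to 3 for the RSCs. Median-of-ratios scaling moved the median of all tested genes from -0.17 to 0.01 and the share of RSC calls among all calls from 44.6% to 55.7%. The members' median (-0.21) was -0.29 after quantile normalization, -0.014 after median-of-ratios scaling, -0.27 without globins and -0.17 to -0.30 with 1 sample left out. In the same order, complex I (-0.18) had -0.24, 0.027 and -0.24, and -0.13 to -0.24. Complex II (-0.12) had 0.092 after median-of-ratios scaling and -0.27 to 0.014 with 1 sample left out, complex III -0.043 and complex IV 0.0031 after median-of-ratios scaling, and complex V (-0.48) -0.63 after quantile normalization and -0.26 after median-of-ratios scaling. The log2 ratio of summed FPKM was -0.28, -0.36, -0.072 and -0.63 for complexes I, III, IV and V after quantile normalization, 0.019, 0.12, -0.035, 0.27 and -0.30 for complexes I to V after median-of-ratios scaling, and -0.0049 and -0.57 for complexes IV and V without globins. Of the 88 tested members 64 had a log2 fold change below 0, and 51 lay below the median of all tested genes (-0.17). The number below 0 was 45 after median-of-ratios scaling. Among the uncalled genes followed singly, which are a part of those that turned, this scaling turned Cox7a2 (0.027), Cox8a (0.046), Sdhb (0.035), Sdhd (0.15) and Uqcrq (0.11), quantile normalization turned Cox6a1 (-0.085), Cox4i2 turned without SCP sample 2 (0.022) and without RSC sample 3 (0.15, range -0.61 to 0.15 over samples left out), and Sdhd without SCP sample 1 (0.045) and SCP sample 2 (0.016, range -0.25 to 0.045). The cause of these shifts was not tested. Same-numbered samples hardly deviated together (correlations of 0.044, -0.0049 and 0.026 across genes). SCP samples 1 and 3 correlated best with the RSC sample of the same number, and SCP sample 2 with RSC sample 1 (0.0051). All these correlations were small, so the numbers were not taken to pair the samples. With the replicate number as a block 18 members (20.5%) were higher in the SCPs and 2 (2.27%) in the RSCs, beside 17.3% and 15.6% of all tested genes. With unknown depth, no sampling error could be set on weakly expressed members.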

Other observations

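Other mitochondrial genes of nuclear origin were looked at as fixed lists, and those called were mostly higher in the SCPs. Of 22 genes for outer membrane channels and protein import 9 (40.9%) were higher in the SCPs and none in the RSCs, with a median log2 fold change of -0.46, beside 22.4% and 18.1% of all tested genes. Tomm6, a small subunit of the outer membrane import pore, was at 149, 127 and 133 FPKM in the SCPs and 62.6, 54.0 and 74.4 FPKM in the RSCs (log2 fold change -1.09, standard error 0.14, adjusted p = 0.0014 from limma), and Timm8a1, a chaperone of the space between the membranes, had -0.98. Of 71 tested mitochondrial ribosome genes 13 (18.3%) were higher in the SCPs and 1 in the RSCs, with a median of -0.31. Among the called genes the largest changes were those of Mrpl17, at 83.0, 55.8 and 78.9 FPKM and 21.2, 14.8 and 28.4 FPKM (log2 fold change -1.73), and Mrpl37 (-1.26). The gene on the other side was Mrpl33, at 35.9, 33.1 and 40.1 FPKM and 73.8, 81.2 and 72.8 FPKM (log2 fold change 1.04, standard error 0.10, adjusted p = 5.4e-04). Of 12 targets of the hypoxia-inducible factors 2 were higher in the RSCs, the peptide hormone gene Adm (4.37) and the glucose transporter gene Slc2a1 (1.34), and 1, the lactate dehydrogenase gene Ldha (-0.40), was higher in the SCPs. After median-of-ratios scaling the calls for the SCPs and the RSCs were 6 and 0 for channels and import, 8 and 2 for the mitochondrial ribosome and 0 and 3 for the hypoxia targets, with medians of -0.25, -0.12 and -0.01, beside 16.9% and 21.2% of all tested genes.

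Messages of the mitochondrial genome had no named transcript above 0. In each sample 1 unnamed transcript spanned nearly all of it, at 877, 850.0 and 927 FPKM in the SCPs and 945, 904 and 847 FPKM in the RSCs, and the groups overlapped. This value cannot be split into single genes.

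Unnamed transcripts at members' own loci, kept apart from the values above, held 3.34%, 4.49% and 2.92% of the members' FPKM in the SCPs and 1.76%, 1.45% and 2.05% in the RSCs. The highest were 210.5 FPKM for a transcript of 208 bases at Ndufs4 in SCP sample 2 and 206 FPKM for one of 232 bases at Cox5a in SCP sample 1. Among the other marker lists, the 8 mural cell markers summed to 74.5, 266 and 145 FPKM in the SCPs and 183, 174 and 119 FPKM in the RSCs (1 of 7 tested higher in the RSCs, Acta2 most abundant, Rgs5 at 0 in the RSCs), the 6 endothelial markers to 29.96, 50.4 and 37.8 FPKM and 83.9, 82.7 and 76.5 FPKM (1 of 6 higher in the RSCs, Cldn5), and the 6 neuron markers to 51.6, 28.8 and 39.4 FPKM and 24.3, 19.0 and 18.5 FPKM (2 of 5 tested higher in the SCPs, Tubb3 most abundant, Elavl4 and Isl1 at 0 in the RSCs).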
